A study of Homo sapiens with 8 samples.

Results

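The transcriptome of mock cells of the prostate cancer line PC3 was set against that of 3 other urological cancer lines. Every array of the series carried Cy3-labelled RNA of control (mock) cells beside Cy5-labelled RNA of treated cells, and the mock channel was read alone. Of the 8 mock channels, 3 were of PC3, 1 of C4-2, 2 of 786-O and 2 of T24. The PC3 mocks were those hybridised beside bisamide24H, bisamide48H and miR-125b-1-3p cells, and are called PC3 replicates 1, 2 and 3 in that order. The C4-2 mock lay beside miR-199-3p cells, the 786-O mocks beside miR-532-5p and miR-532-3p cells, and the T24 mocks beside miR-140-5p and miR-140-3p cells. Bisamide is a small-molecule inhibitor of the protein pirin (PIR), and the others are microRNAs. In the study these channels served as the reference of each treatment. Genes were kept where the signal was well above background on all 3 PC3 arrays, or on all arrays of at least 1 other line, which gave 20468 of the 43317 genes on the array.

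PC3 is an established line from a bone metastasis of a prostate adenocarcinoma, known for growing without androgen. C4-2 is a subline of LNCaP that responds to androgen and secretes prostate-specific antigen, the product of KLK3. 786-O is a clear cell renal carcinoma line without functional VHL, the ligase that marks hypoxia-inducible factors for degradation, and T24 is a bladder carcinoma line. The labels name RPMI or DMEM as medium without saying which line was grown in which, so line and medium cannot be told apart.

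Values are log2 signals after background correction and quantile normalization of the 8 mock channels, and all differences between lines are on this log2 scale. A gene was called where limma's moderated test gave a Benjamini-Hochberg adjusted p under 0.05 and the difference was at least 1, which is a doubling. An offset of 50 was added to every signal, so an undetected gene reads about 5.7 to 6.0 and differences of dim genes are understated. Between 15725 and 19330 genes were well above background on an array, with the highest counts on the PC3 arrays, and no spot was saturated. Across the 12747 genes bright on all 8 arrays, PC3 mocks correlated with each other at r = 0.991 to 0.996, with C4-2 at 0.876 to 0.884 and with 786-O and T24 at 0.923 to 0.929. These correlations run across genes, which are not independent replicates. PC3 replicate 3 stood apart from the other 2: the SD of its differences was 0.220 and 0.227, against 0.153 between replicates 1 and 2. Both 786-O mocks (SD 0.0869) and both T24 mocks (SD 0.0663) were closer still, and each pair was averaged and counted as 1 sample, because the scan names carry 1 mock number per pair. The spread in every test is therefore that of the 3 PC3 mocks, which may be technical, and the single values of the other lines were assumed to vary as much. Where PC3 was at the floor, the offset compressed that spread (SD 0.0048 for CTNNA1). The SE and adjusted p of such genes may therefore be too small. The 4 prostate arrays lay in 1 row of the slide and the 786-O and T24 arrays in the other, so row and these 2 lines cannot be told apart.

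The lines were checked against markers of their tissue. KLK3, KLK2 and FOLH1 were bright in C4-2, and PAX8 and PAX2, transcription factors of the developing kidney, were bright in 786-O. T24 also carried PAX8 (8.55 and 8.61) and PAX2 (9.02 and 9.14) at levels near those of 786-O (8.73 and 8.77, and 7.87 and 7.75). Of 12 urothelial symbols only 6 passed the filter, and the uroplakin UPK3A, a defining protein of urothelium, was not well above background in T24, while UPK1A was just above it (5.99 and 6.10). These few markers did not single out T24 as urothelial and cannot settle its origin, which was not tested. None of the 8 blood and endothelial markers that passed the filter was called, and in PC3 their signals ran from 5.76 to 7.28.

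With the size threshold, more genes were called above the mean of the other lines in PC3 than below it. Of 20468 genes tested, 851 were higher in PC3 (4.16%) and 624 were lower (3.05%), as the plot of PC3 against the other lines shows. Without the size threshold the order turned, with 5246 higher and 6832 lower by adjusted p alone. Against single lines, PC3 was higher and lower in 1574 (7.69%) and 1587 (7.75%) genes for C4-2, in 957 (4.68%) and 1071 (5.23%) for 786-O, and in 975 (4.76%) and 797 (3.89%) for T24. The genes that set PC3 apart from every line were fewer: 352 were called higher than in each of the 3 (1.72%) and 97 lower than in each (0.474%). Without PC3 replicate 3 these counts were 389 and 108, and the counts against the mean were 894 and 651. All 3 PC3 arrays lay above the 5 others in 3508 genes (17.1%) and below them in 2787 (13.6%). The counts rest on the scaling and on what counts as a replicate: scaling by the median, which shifts PC3 upward by 0.365, gave 3428 higher and 251 lower, scaling by the 75th percentile made 79.9% of the calls higher in place of 57.7%, and treating the 3 other lines as replicates of 1 group left 393 and 116. In that last fit 74 of the 122 named genes lost their call, and those described below are given at the end of each paragraph. Other genes in the text were not followed in it, so their absence from those lists does not mean that a call held. Among them are MSMP, DKK1, ADIRF, IGFBP7, CRAT, GDF15, PKP1, CLDN1, COL12A1, COL7A1, LAMC1, CTSV, CTSL and HOXA13. A gene can also pass the filter through 1 other line alone, which leaves PC3 the lower side. Passing through the PC3 arrays alone leaves PC3 the higher side. Counts and medians over a list therefore describe it and support nothing more. Each list count below is to be set beside the 4.16% of all genes called higher and the 3.05% called lower.

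**Figure D1:**
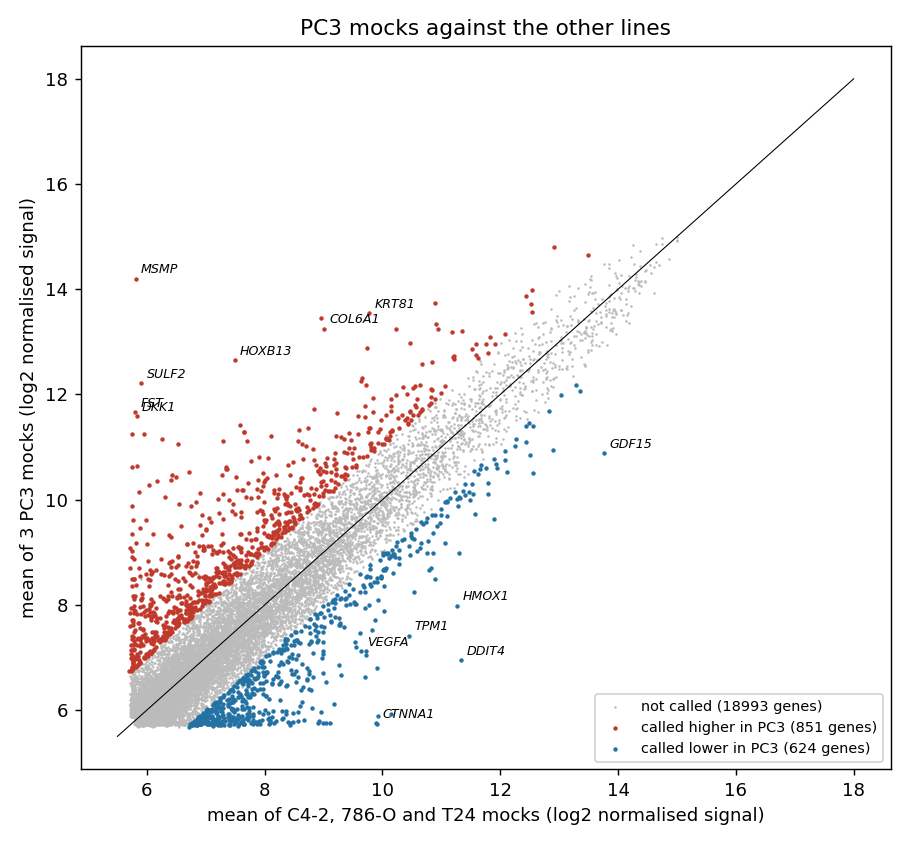
Mean log2 normalised signal of the 3 PC3 mocks (vertical) against the mean of the C4-2, 786-O and T24 mocks (horizontal), 1 point per gene tested, with the line of equal signal. Red points are the 851 genes called higher in PC3 and blue points the 624 called lower; MSMP and SULF2 stand at the upper left and CTNNA1 and DDIT4 at the lower right.

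Of the markers of prostate luminal cells, PC3 kept HOXB13, FOXA1 and SPDEF and lacked the secretory genes. HOXB13, a homeobox factor of the prostate lineage, read 12.36, 12.85 and 12.74 in the PC3 mocks, against 10.10 in C4-2, 5.71 and 5.74 in 786-O, and 6.66 and 6.63 in T24, a difference of 5.16 ± 0.15 (SE; adjusted p = 6.37e-05). It was the highest of the 4 lines in PC3, above C4-2 on every array. FOXA1, a pioneer factor that opens chromatin, read 8.18, 8.48 and 8.92 in PC3 and 9.07 in C4-2, and was near the floor in 786-O (5.84 and 5.85) and T24 (5.91 and 5.92). The call of FOXA1 rests on 1 of its 2 probes, since the other, dimmer one gave a difference of -0.41 and the mean over both was 0.59 and not called. SPDEF, an epithelial ETS factor, was bright in the same 2 lines, with 7.40, 7.37 and 8.33 in PC3, 7.93 in C4-2 and at most 5.93 in the others. Of the 10 members of this list tested, 3 were called higher and 2 lower, with a median difference of 0.01 against -0.03 over all genes. Only 3 of the 10 were bright on all 8 arrays. HOXB13 and FOXA1 lost their calls with the other lines as replicates.

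Prostate-specific antigen and its companions separated the 2 prostate lines. KLK3 read 5.74, 5.74 and 5.76 in PC3, not well above background on any array, and 13.80 in C4-2. FOLH1, which encodes prostate-specific membrane antigen, read 5.82, 5.78 and 5.84 in PC3, also not above background, and 11.65 in C4-2. Of the 18 androgen-induced genes on a list, 3 were called lower in PC3 (KLK3, KLK2 and PMEPA1) and none higher at this threshold, with a median of -0.47. Median scaling brought that list to a median of -0.10, with 3 lower and 3 higher. The calls of KLK3, KLK2 and FOLH1 came from C4-2: PC3 did not differ from 786-O and T24 by as much as 1 in any of them. PMEPA1, an inhibitor of TGF-beta signalling, was the exception, lower than each line at 6.66, 6.71 and 6.75 against 8.23 in C4-2, 10.37 and 10.47 in 786-O, and 8.30 and 8.33 in T24. Dimmer second probes of KLK3, KLK2 and FOLH1 differed by -0.94, -0.32 and -0.69. The calls of KLK3, FOLH1, KLK2 and PMEPA1 were lost with the other lines as replicates.

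**Figure D2:**
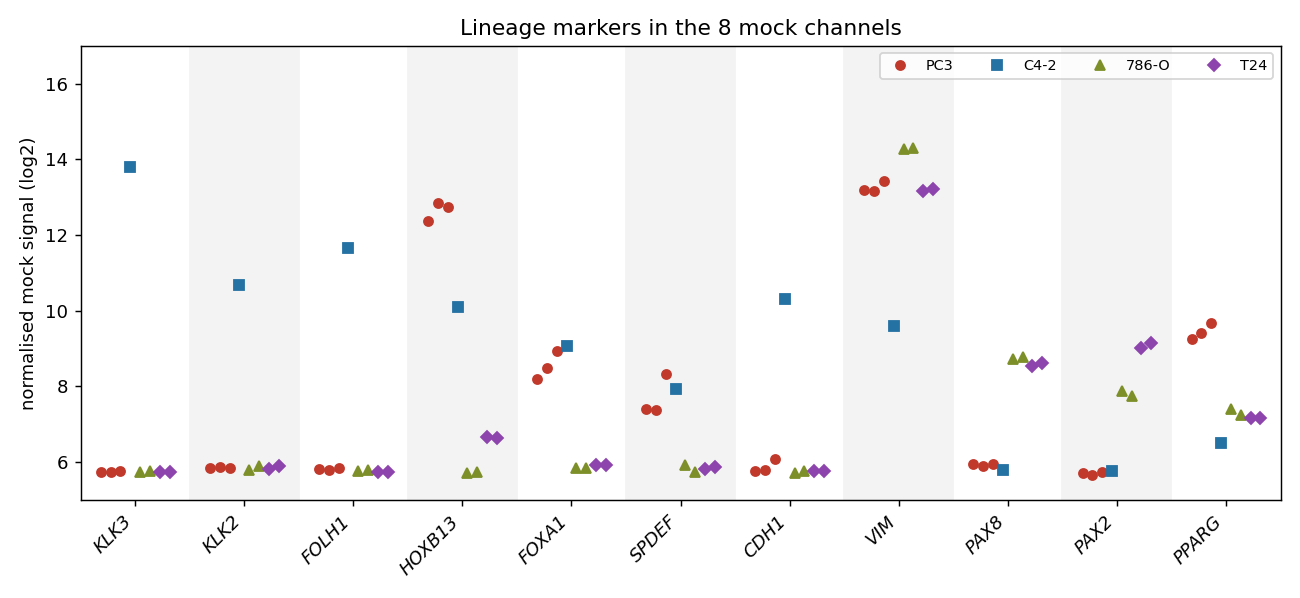
Log2 normalised mock signal (vertical) of 11 lineage genes on the 8 arrays, 1 point per array, coloured by line. KLK3 is at 13.80 in C4-2 and near 5.7 on all other arrays, and HOXB13 lies between 12.36 and 12.85 in PC3.

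Some keratins were higher in PC3, while E-cadherin was at or near background. Of 10 keratins tested 4 were called higher and none lower by this test (median 0.38, with 4 higher under each scaling). That was 40% called higher, against 4.16% of all genes. KRT19, a simple epithelial keratin, read 13.23, 13.38 and 13.76 in PC3 against 10.32 in C4-2, 10.79 and 10.72 in 786-O, and 5.81 and 5.78 in T24, and KRT7 read 11.99, 10.94 and 11.06 against 8.31 in C4-2, 8.74 and 8.69 in 786-O, and 8.70 and 8.68 in T24. Both were higher than in each line. The hair keratin KRT81 (14.05, 13.06 and 13.53) and its relative KRT83 (10.84, 9.49 and 9.81), which was not on the list, exceeded the others by 3.78 and 3.73, but their sequences are near-identical in part and the probes may share signal. KRT18 and KRT8, the keratins of all simple epithelia, were not called: KRT18 differed by -0.22 ± 0.11 (SE; adjusted p = 0.14) and KRT8 by -0.88 ± 0.10 (SE; adjusted p = 0.0012). With the other lines as replicates, the call of KRT19 was lost.

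Among epithelial junction genes 4 of 30 were called higher and 6 lower (median -0.43, or 0.00 under median scaling). These were 13.3% and 20%, against 4.16% and 3.05% of all genes. Only 12 of the 30 were bright on all 8 arrays, and the others could pass through PC3 or another line alone. The counts therefore only describe the list. CDH1, the gene of E-cadherin, read 5.76, 5.80 and 6.09 in PC3, above background on replicate 3 only, against 10.32 in C4-2. It was equally dim in 786-O (5.71 and 5.75) and T24 (5.77 and 5.76), so its call rests on C4-2. CLDN4, a tight junction claudin, read 12.80, 12.93 and 12.91 in PC3, near C4-2 (12.54), above 786-O (10.79 and 10.78) and far above T24 (5.94 and 5.86). CLDN3 followed it, with 10.01, 10.54 and 10.40 in PC3 and 11.52 in C4-2. PKP1, a desmosomal plakophilin, was bright in PC3 only (7.61, 7.14 and 7.29) and was called higher than in each line. DSP and CLDN1 were lower, with differences of -1.87 and -1.68. DSP was uneven in PC3, at 6.70, 6.64 and 8.01. CDH1, CLDN4, CLDN3 and DSP lost their calls with the other lines as replicates.

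Mesenchymal genes were mixed, with 5 of 20 called higher and 4 lower (25% and 20%, against 4.16% and 3.05% of all genes). Only 6 of the 20 were bright on all 8 arrays, and the others could pass through PC3 or another line alone. The counts therefore only describe the list. CDH11, a cadherin of mesenchyme and bone-forming cells, read 9.23, 8.95 and 9.27 in PC3 against 5.73 in C4-2, 6.51 and 6.58 in 786-O, and 5.76 and 5.70 in T24, a difference of 3.15 ± 0.11 (SE; adjusted p = 6.37e-05), higher than in each line. VIM, the gene of the intermediate filament vimentin, read 13.19, 13.16 and 13.42 in PC3, near T24 (13.17 and 13.22), below 786-O (14.27 and 14.29) and far above C4-2 (9.59). Its difference from the mean, 0.90, missed the size threshold. It was -0.48 without C4-2, 1.86 without 786-O, 1.32 without T24, 1.58 under median scaling and 1.25 under 75th percentile scaling, and was called higher in the last 4 of these. N-cadherin (CDH2) and the repressor ZEB1 were also bright in PC3, at 9.68, 9.45 and 9.45 for CDH2 and 8.69, 8.62 and 8.48 for ZEB1, while C4-2 was not well above background in either. In the other direction, TGFBI, an extracellular adhesion protein, read 6.54, 6.01 and 5.80 against 14.19 and 14.27 in 786-O, 7.47 and 7.52 in T24 and 5.81 in C4-2. TPM1, an actin-binding tropomyosin outside the list, read 7.56, 7.27 and 7.40 in PC3 against 8.49 in C4-2, 11.67 and 11.70 in 786-O, and 11.18 and 11.17 in T24, lower than in each line. The calls of TGFBI and TPM1 were lost with the other lines as replicates.

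Several genes of secreted proteins were far higher in PC3 than in the other lines. MSMP, a microseminoprotein first described in PC3 cells, read 13.69, 14.83 and 14.08 in the PC3 mocks against 5.77 in C4-2, 5.69 and 5.73 in 786-O, and 5.98 and 5.89 in T24, a difference of 8.40 ± 0.30 (SE; adjusted p = 6.37e-05). It was named after its values were seen, as were DKK1, ADIRF and IGFBP7 below. SULF2, an extracellular sulfatase that edits heparan sulfate, read 12.10, 12.45 and 12.10 in PC3 and was not above background on any other array. Its log2 difference was 6.31 (adjusted p = 6.37e-05). Set against the lowest signal well above background on the other arrays, which gives a lower limit, it was at least 78.7-fold higher. FST, the activin antagonist follistatin, read 11.41, 11.47 and 12.11 and was at least 55.7-fold higher on the same grounds. INHBB, which encodes a subunit of activin B, was higher as well, at 10.29, 10.07 and 11.41 against 7.13 in C4-2, 8.93 and 8.93 in 786-O, and 5.93 and 6.02 in T24. DKK1, a secreted Wnt inhibitor, read 11.33, 11.22 and 12.21 in PC3 and no more than 6.0 in the other lines. ADIRF, an adipogenesis regulatory factor that is not secreted, read 10.89, 11.12 and 11.73 in PC3 and at most 6.13 elsewhere, a difference of 5.30 ± 0.23 (SE; adjusted p = 6.97e-05). The Wnt receptor FZD4 read 10.13, 11.19 and 10.46 in PC3 and was higher than in each line by 2.43 to 3.91. With the other lines as replicates, the call of INHBB was lost.

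The other genes bright in PC3 and dim in all other lines came from several families. GPR110, an adhesion G protein-coupled receptor now called ADGRF1, was at least 26.9-fold higher, and PRSS3, a trypsin family protease with near-identical relatives, at least 19.2-fold. The bounds were 16.3 for PHACTR3, 13.6 for TSPYL5, 11.1 for HSD17B2, a steroid dehydrogenase that inactivates androgens and oestrogens, 8.12 for TRIM58, 7.14 for the microfibril gene FBN2 and 6.96 for TMEM255B. PHACTR3 varied most among the PC3 mocks, at 9.01, 10.67 and 9.98. In all, 843 of the 20468 genes tested were well above background on the 3 PC3 arrays and on none of the other 5. Of these, 61 were called higher than in each line. More genes were well above background on each PC3 array (18728 to 19330) than on the others (15725 to 17772). How far this raised the count was not tested.

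More collagens and laminins were called higher in PC3 than lower. Of 22 tested, 9 were called higher and 2 lower (median 0.72; 9 to 13 higher and 1 to 3 lower over the 4 scalings). The shares were 40.9% and 9.09%, against 4.16% and 3.05% of all genes. Only 9 of the 22 were bright on all 8 arrays. The others could pass through PC3 alone, which leaves it the higher side, or through another line alone. The counts therefore only describe the list. Its median was 0.99 against C4-2, 0.03 against 786-O and 1.09 against T24. COL6A1, a chain of the filament-forming type VI collagen, had the largest difference of all named genes bright on every array: it read 13.29, 13.53 and 12.92 in PC3 against 9.95 in C4-2, 10.38 and 10.40 in 786-O, and 6.68 and 6.65 in T24, or 4.25 ± 0.17 (SE; adjusted p = 6.44e-05). Its partner COL6A2 read 8.80, 8.68 and 8.28, higher than in each line by a mean of 2.18. COL13A1, a membrane collagen, read 10.34, 10.37 and 10.58 in PC3 and 7.71 and 7.70 in 786-O, and was dim in C4-2 and T24. COL5A2 and COL12A1 were also higher than in each line. COL7A1, the anchoring fibril collagen, and LAMC1, the common laminin gamma chain, were lower, with differences of -1.72 and -1.48, both with 786-O highest. ANTXR2, a receptor that binds collagen and laminin, read 11.03, 11.51 and 11.30 in PC3 against 6.06 in C4-2, 8.92 and 8.90 in 786-O, and 8.0 and 7.98 in T24 by its brightest probe, while another of its probes differed by -0.11. COL6A1 lost its call with the other lines as replicates.

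Proteases and surface receptors followed in smaller numbers, to be set beside the 4.16% of all genes called higher and 3.05% lower. Of 21 genes of plasminogen activation and matrix proteolysis, 6 were called higher and 3 lower, or 9 and none under median scaling. PLAT, tissue plasminogen activator, read 10.24, 9.88 and 10.92 in PC3, 6.99 and 6.99 in 786-O and was not above background in C4-2 and T24. PLAU, urokinase, read 12.66, 12.03 and 12.06, between T24 (13.23 and 13.21) and 786-O (9.73 and 9.73), with C4-2 the lowest line. The difference of PLAU from the mean was 2.61 and fell as low as 0.77 over the alternative fits. SERPINB5, the epithelial serpin maspin, read 9.56, 9.63 and 9.62 and was above the floor elsewhere only in C4-2 (6.41). The cathepsin genes CTSV and CTSL were lower, with differences of -1.48 and -1.26. Among 15 integrins 2 were higher and 2 lower: ITGB4, a hemidesmosome subunit, read 8.88, 9.58 and 9.52 in PC3 against at most 7.35 elsewhere, and ITGAV, a vitronectin receptor subunit, was lower, with a difference of -1.71. Of 28 growth factor receptors and ligands 5 were called higher and 1 lower. MET, the receptor of hepatocyte growth factor, read 12.13, 12.29 and 12.12 in PC3, 12.37 and 12.41 in 786-O, 10.70 and 10.88 in T24 and 6.0 in C4-2, so that its difference of 2.45 came mainly from C4-2. TNFRSF21, a death receptor, was higher than in each line at 10.42, 10.61 and 10.86 against 7.53 in C4-2, 8.14 and 8.09 in 786-O, and 6.35 and 6.43 in T24. The calls of PLAU, ITGAV and MET were lost with the other lines as replicates.

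Several transcription factors were among the genes higher in PC3 than in each line. NR2F1, an orphan nuclear receptor, read 9.38, 9.68 and 10.71 against 6.27 in C4-2, 6.89 and 6.91 in 786-O, and 6.52 and 6.39 in T24. PPARG, the fatty acid receptor of adipocytes and urothelium, read 9.24, 9.41 and 9.68 against 6.52 in C4-2, 7.39 and 7.25 in 786-O, and 7.16 and 7.18 in T24, a difference of 2.44 ± 0.14 (SE; adjusted p = 0.000122), highest in PC3 rather than in the bladder line. ZNF503, a zinc finger repressor, read 11.08, 11.47 and 11.74, at least 2.88 above each line. Of the 31 HOX genes tested, which pattern the body axis, 2 were higher (6.45%) and 9 lower (29.03%), against 4.16% and 3.05% over all genes (5 to 9 lower and 2 to 3 higher over the scalings). Only 11 of the 31 were bright on all 8 arrays, and others could pass through another line alone, which leaves PC3 the lower side. HOXB13 and HOXA13, members of the most posterior paralogue group, were the 2 that were higher, with HOXA13 at 7.53, 7.67 and 8.33 in PC3 and at most 6.35 elsewhere. HOXC9 (6.14, 6.06 and 6.29 against 8.52 in C4-2, 8.19 and 8.11 in 786-O, and 9.26 and 9.24 in T24) and HOXB9 (5.99, 5.90 and 5.93 against 7.23 in C4-2, 9.47 and 9.44 in 786-O, and 7.49 and 7.50 in T24) were lower than in each line. ALDH1A3, a retinaldehyde dehydrogenase, read 11.13, 10.53 and 11.69 in PC3 and at most 8.08 elsewhere. Its relative ALDH1A1 was dim on all PC3 arrays and bright in C4-2 and 786-O. A second, dimmer probe of ALDH1A1 differed by only -0.20. With the other lines as replicates, the calls of HOXB9 and ALDH1A1 were lost.

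DDIT4, HMOX1, ATF3 and BBC3, genes of stress responses, were lower in PC3 than in each line. DDIT4, an inhibitor of mTORC1 that is induced by low oxygen and energy stress, had the lowest difference of all named genes: it read 6.51, 6.77 and 7.55 in PC3 against 12.48 in C4-2, 10.91 and 10.95 in 786-O, and 10.62 and 10.60 in T24, or -4.39 ± 0.28 (SE; adjusted p = 0.00018). HMOX1, haem oxygenase and a target of NRF2, read 7.82, 7.59 and 8.53 against 11.80 in C4-2, 9.59 and 9.56 in 786-O, and 12.44 and 12.42 in T24. ATF3, a transcription factor of the stress response, read 6.52, 6.29 and 7.16 against 12.21 in C4-2, 7.83 and 7.77 in 786-O, and 7.89 and 7.83 in T24, lower than in each line though C4-2 stood far above the rest. In all 3 genes PC3 replicate 3 was the highest of the PC3 mocks, and still below every other array. BBC3, which encodes the death factor PUMA, read 6.33, 6.44 and 6.43 against 9.62 in C4-2, 7.84 and 7.66 in 786-O, and 8.96 and 8.86 in T24. GDF15, a stress cytokine, differed from the mean by -2.88 (adjusted p = 0.0184), but its PC3 mocks spread over 9.27, 11.19 and 12.18 and overlapped 786-O (11.52 and 11.48). HMOX1 and ATF3 lost their calls with the other lines as replicates.

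Hypoxia genes were lower in PC3 in 7 of 18 and higher in 1 (median -0.51; 3 to 7 lower and 1 higher over the scalings). These were 38.9% lower and 5.56% higher, against 3.05% and 4.16% of all genes. Of the 18, 12 were bright on all 8 arrays. The others could pass through another line alone, which leaves PC3 the lower side, so the counts only describe the list. None of the 18 was called lower than in each line. The median was -0.30 against C4-2, -0.58 against 786-O and -0.25 against T24. VEGFA, the endothelial growth factor, read 6.95, 6.92 and 7.47 in PC3, 11.86 in C4-2, 10.21 and 10.24 in 786-O and 6.86 and 6.80 in T24, so that PC3 lay with T24. ANGPTL4, a lipase inhibitor, read 6.53, 7.16 and 7.68 against 12.85 and 12.86 in 786-O and 10.47 and 10.51 in T24, and was dim in C4-2. SLC2A1, the glucose transporter GLUT1, read 7.33, 7.99 and 8.51 in PC3 and was highest in 786-O (11.31 and 11.27). HIF1A, the oxygen-regulated subunit itself, was the 1 that was higher, at 8.39, 8.52 and 8.74, and was not above background in 786-O (5.74 and 5.73). A second, dimmer probe of HIF1A differed by only 0.40. Replicate 3 had the highest signal of the PC3 mocks for this list, with a median of 0.41 above the other 2, and replicate 1 the lowest, at -0.24. The calls of VEGFA, ANGPTL4, SLC2A1 and HIF1A were lost with the other lines as replicates.

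In the metabolic lists, 3 of 22 cholesterol synthesis genes were called higher and none lower at this threshold, against 7 and none under median scaling. That was 13.6% called higher, against 4.16% of all genes. SQLE, DHCR7 and LSS, enzymes of the pathway, exceeded the mean by 1.51, 1.37 and 1.04. A second, dimmer probe of LSS differed by only 0.01. Among 28 NRF2 targets and glutathione genes 3 were higher (10.7%) and 2 lower (7.14%), against 4.16% and 3.05% of all genes. GSTP1, a glutathione transferase, read 13.22, 13.29 and 13.21 in PC3, near T24 (12.97 and 12.93), and was not above background in C4-2 (5.91). GCLC, the rate-limiting enzyme of glutathione synthesis, was higher than in each line (8.35, 8.45 and 8.35 against 7.17 in C4-2, 7.21 and 7.16 in 786-O, and 6.97 and 7.02 in T24). UGCG, glucosylceramide synthase, was low in both prostate lines, at 6.62, 6.40 and 6.60 in PC3 and 7.0 in C4-2 against 9.98 and 9.91 in 786-O and 10.16 and 10.17 in T24. IGFBP7, a secreted growth factor binding protein, was likewise not above background in PC3 or C4-2 and stood at 11.53 and 11.48 in 786-O and 12.39 and 12.44 in T24. With the other lines as replicates, the calls of SQLE, DHCR7, LSS, GSTP1 and UGCG were lost.

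Of 33 cancer testis antigens, genes otherwise expressed in germ cells, 16 passed the filter and 3 were bright on all 8 arrays. Many of the others passed only through another line in which they were bright, which leaves PC3 the lower side, so no count or median is read from this list. XAGE1B was bright in C4-2 (11.71), MAGEA6 in C4-2 and 786-O (11.76, and 8.98 and 8.92). In PC3 XAGE1B was not above background on any array and MAGEA6 read 6.82, 6.81 and 6.26. Members of these X-linked families are near-identical and cannot be fully told apart by a probe. Only 4 of 25 inflammatory cytokines were bright on all 8 arrays, so no count is read from that list either. IL6 read 5.89, 5.81 and 6.07 in PC3 against 9.56 and 9.54 in 786-O and 9.66 and 9.82 in T24. CXCL8, the neutrophil chemokine, read 6.59, 6.26 and 6.63, above C4-2 (5.74) and below 786-O (7.28 and 7.25) and T24 (6.99 and 7.07), and its difference from the mean was -0.19 ± 0.11 (SE; adjusted p = 0.204), with the sign turned by median scaling (0.11). IL1B was called higher (7.41, 7.18 and 9.82 against at most 6.10 elsewhere) with an adjusted p of 0.0419. The call was lost without replicate 1 (0.0589), and without replicate 3 the difference was 1.37 in place of 2.21 (adjusted p = 0.000215). Leaving out any 1 of the other lines also ended it (0.0519 to 0.0682). The antigen presentation list had 3 of 17 lower and none higher by this test (PSMB9, HLA-C and HLA-G), none of which was called under median scaling. That was 17.6% lower, against 3.05% of all genes. Its median was -1.15 against 786-O, but 0.10 against C4-2 and -0.10 against T24. No member was called lower than in each line. Of 29 interferon-stimulated genes 2 were higher (6.90%) and 1 lower (3.45%), near the 4.16% and 3.05% of all genes. XAGE1B, MAGEA6, IL6, IL1B, PSMB9, HLA-C and HLA-G lost their calls with the other lines as replicates.

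The other lists had few calls. Of 34 cell cycle genes 1 was called higher (TYMS, with a difference of 1.03), or 2.94% against 4.16% of all genes, and none lower by this test, with a median of -0.05 that median scaling moved to 0.62. Of 12 housekeeping genes 1 was called, the transferrin receptor TFRC, higher by 1.68. Of 22 tumour suppressors 1 was higher and 1 lower (CTNNA1), or 4.55% each way against 4.16% and 3.05%. The higher one was CDKN2A, the inhibitor of the cyclin D kinases, which read 10.56, 10.82 and 10.58 in PC3 against 9.06 in C4-2, 6.51 and 6.51 in 786-O, and 9.58 and 9.67 in T24. S100 genes had 4 of 11 higher (36.4%) and 1 lower (9.09%) and the highest median of all lists, 0.91. Against single lines their median was 1.49 for C4-2, 0.24 for 786-O and 0.46 for T24. S100A6 and S100A16 led by 2.85 and 2.55, both with C4-2 not above background (5.75 and 5.77). Over the alternative fits these differences fell as low as 0.28 for S100A6 and 1.155 for S100A16. Only 3 of 11 kidney lineage genes were bright on all 8 arrays, and 2 each of 6 urothelial and 6 neuroendocrine genes. The others could pass through another line alone, which leaves PC3 the lower side, so no count is read from these lists. PAX2, PAX8 and ELF3 were called lower and PPARG higher. The neuroendocrine genes UCHL1 and SCG5 were called lower, both only through 786-O. Of 11 stem cell and retinal dehydrogenase genes 2 were higher, ALDH1A3 and the zinc finger factor KLF5, and 2 lower, ALDH1A1 and POU5F1. The calls of TYMS, CDKN2A, S100A6, S100A16, PAX2, PAX8, ELF3, UCHL1, SCG5 and POU5F1 were lost with the other lines as replicates.

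**Figure D3:**
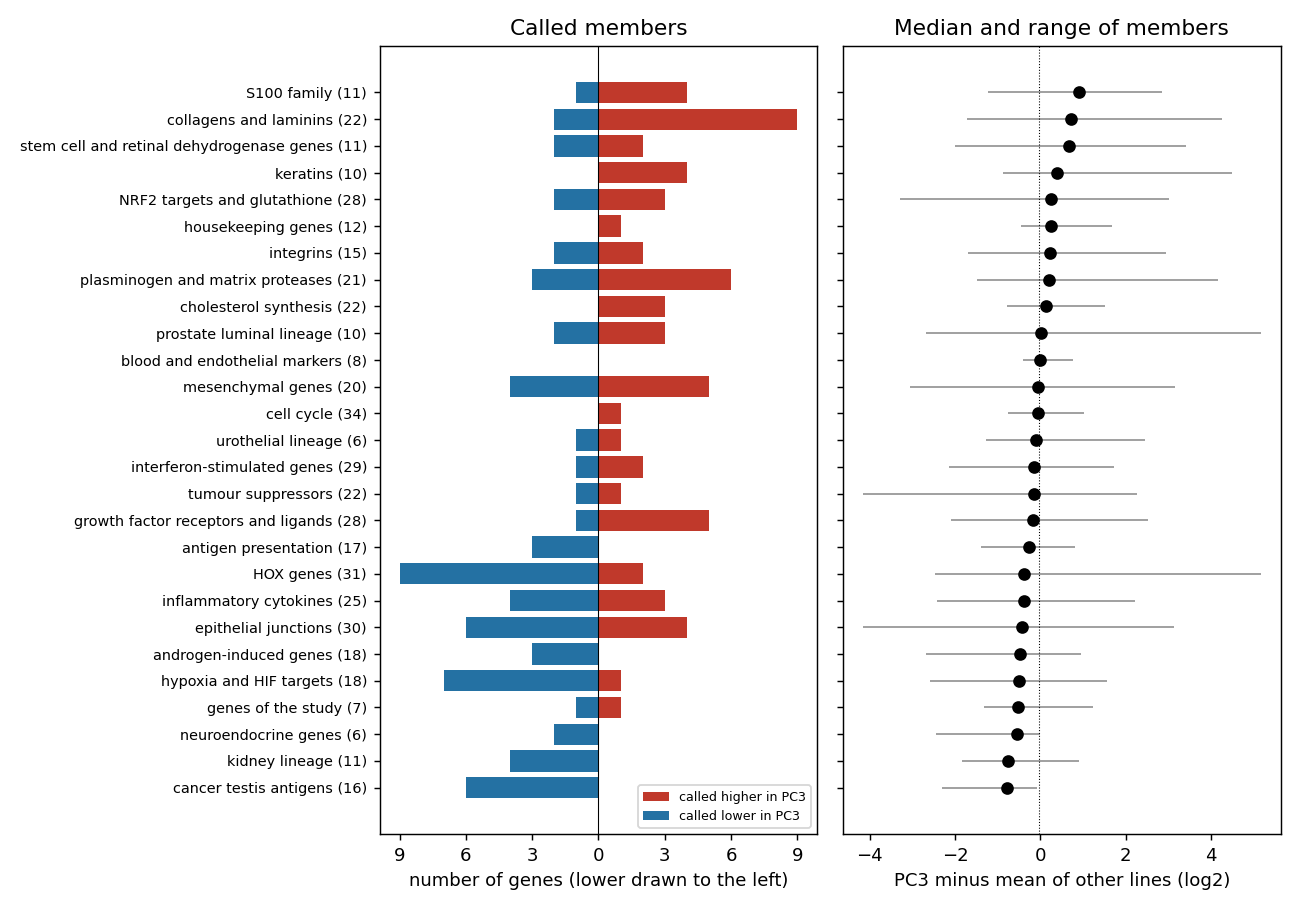
Left, the number of members of each gene list called higher (red, to the right) and lower (blue, to the left) in PC3 than the mean of the other lines, with the number tested in parentheses. Right, the median difference (point) and the range over members (line) on the log2 scale, with the median of all genes dotted at -0.03. Collagens and laminins have the most members called higher (9) and HOX genes the most called lower (9).

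A set of genes bright in every other line was missing from PC3. In all, 134 of the 20468 genes tested were well above background on the 5 other arrays and on no PC3 array. Of genes dim on all PC3 arrays, 17 were called lower than in each line. CTNNA1, the alpha-catenin that ties cadherins to actin, read 5.74, 5.75 and 5.74 in PC3. It read 9.50 in C4-2, 10.20 and 10.24 in 786-O, and 10.03 and 9.94 in T24. Its log2 difference was -4.16 (adjusted p = 6.37e-05, from PC3 values at the floor), and by the bound it was at least 17-fold lower. Its background-subtracted PC3 signals were 3.4, 3.69 and 3.42 units, and its second probe was lower as well, with a difference of -1.48. CRNDE, a long noncoding RNA, was at least 9.01-fold lower, ATP6V0A1, a subunit of the vesicular proton pump, at least 8.54-fold, KAT2A, the histone acetyltransferase GCN5, at least 7.12-fold, and PAFAH1B3 at least 5.99-fold. TNFRSF10D, a decoy receptor of TRAIL, followed with at least 5.1-fold. The bounds of GRB14, ZNF655, SPATA3-AS1 and TMEM71 ran from 3.88 to 4.82, and the last 2 of these had a second probe that differed in sign. CRAT, carnitine acetyltransferase, chosen after its values were seen, read 5.98, 5.92 and 5.87 in PC3 against 10.12 in C4-2, 10.15 and 10.19 in 786-O, and 10.13 and 10.10 in T24, a difference of -4.21 with a trace left on 2 PC3 arrays. With the other lines as replicates, the calls of GRB14, ZNF655 and TMEM71 were lost.

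Several of the missing genes were neighbours, as the plot of 2 such stretches shows. Among genes bright on all other arrays, 10 runs of 2 or more neighbours were dim on every PC3 array. Several runs held genes barely above background elsewhere, such as FAM181A-AS1 (at least 1.15-fold lower), ENST00000540982 (1.20) and AJ312026 (1.23). The count is therefore not one of clear drops. The longest had 5 genes on chromosome 17: KAT2A, RAB5C, GHDC, STAT5B and STAT3, from chr17:40265235-40265294 to chr17:40474404-40474463 in GRCh37, the build of the files. STAT3, the transcription factor downstream of interleukin 6, read 5.73, 5.70 and 5.71 in PC3 against 6.41 in C4-2, 6.32 and 6.38 in 786-O, and 6.80 and 6.80 in T24, at least 1.63-fold lower, and STAT5B read 5.70, 5.73 and 5.76 against 7.11 in C4-2, 7.05 and 6.84 in 786-O, and 7.21 and 7.25 in T24, at least 2.43-fold lower. DHX58, just before KAT2A, was near the floor at 5.86, 5.89 and 5.85. Beyond STAT3, the probe of PTRF, a coat protein gene of caveolae, was bright in PC3 (13.35, 13.35 and 13.05). It read much the same in C4-2 (13.50), 786-O (13.65 and 13.68) and T24 (13.59 and 13.52), and whether this probe is specific was not tested. After it ATP6V0A1 was missing again. NAGLU, next to ATP6V0A1, was present (6.58, 6.89 and 6.70). STAT5A, between STAT5B and STAT3, was dim in some of the other lines and was not counted.

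The run on chromosome 5 held CTNNA1 and SIL1, a co-chaperone gene whose probe lay 12.04 kb away. SIL1 read 5.82, 5.81 and 5.75 in PC3 against 6.65 in C4-2, 7.15 and 7.22 in 786-O, and 6.76 and 6.80 in T24, at least 2.07-fold lower, while HSPA9 on the one side and MATR3 on the other were present at 9.47, 9.23 and 9.23 and 8.76, 8.65 and 8.61. A run of 3 on chromosome 16 held the homeobox genes IRX3 and IRX5 with CRNDE between them. IRX3 was at least 2.66-fold lower and IRX5 at least 1.74-fold. FTO, before IRX3, read 7.75, 7.80 and 7.63 in PC3. Expression alone does not say whether the DNA of a stretch is present, and copy number was not analysed here.

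**Figure D4:**
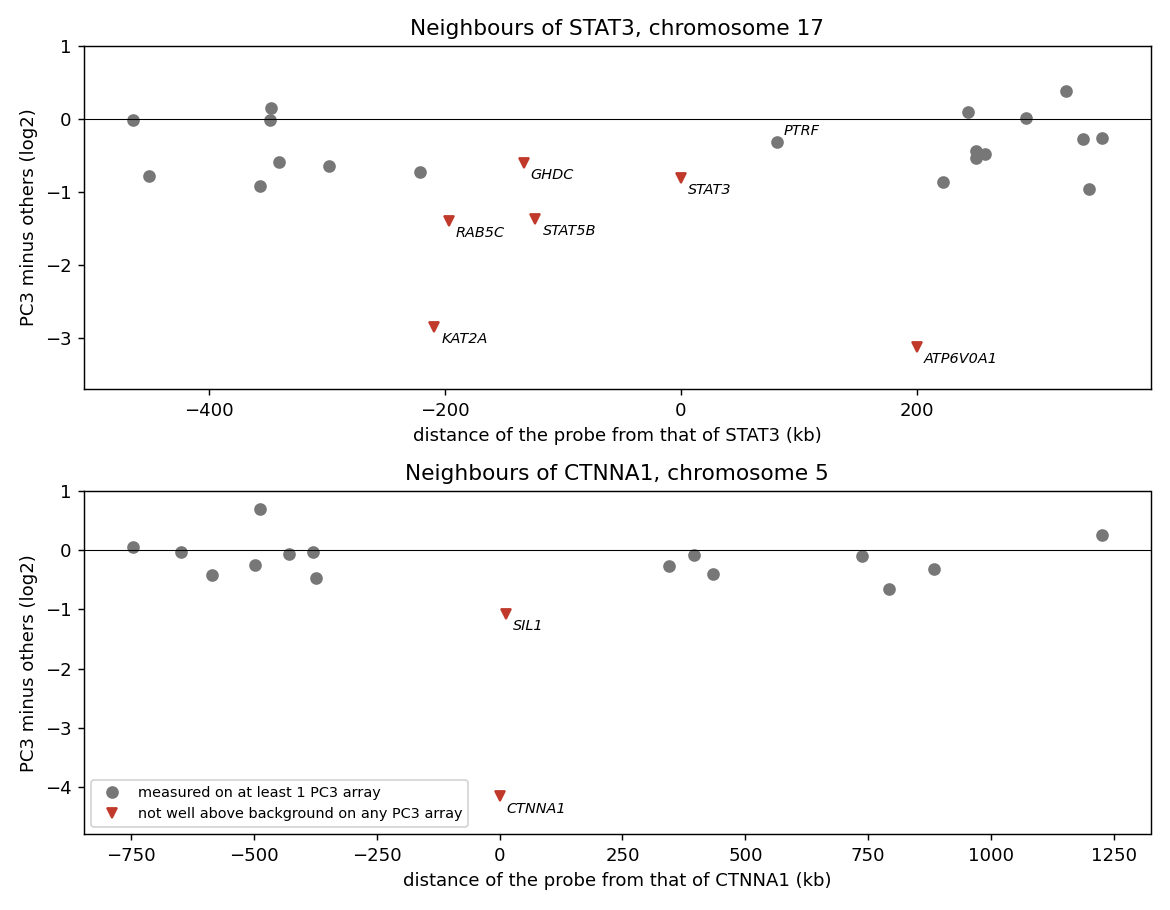
Difference of PC3 from the mean of the other lines (log2, vertical) for genes bright on all 5 other arrays, by the distance of their probes from those of STAT3 (top) and CTNNA1 (bottom) in kb. Red triangles are genes not well above background on any PC3 array, where the difference is limited by the offset, and grey points are genes measured on at least 1 PC3 array, PTRF among them.

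Whole chromosomes differed by less. Over genes bright on all 8 arrays, the median difference was highest on chromosome 21 (0.33 over 140 genes) and chromosome 14 (0.24 over 407) and lowest on chromosome 9 (-0.24 over 537), against -0.06 over all. On chromosome 21 15.0% of genes were called higher, on chromosome 8 11.7% and on chromosome 14 8.85%, against 4.12% over all. Chromosome 9 had medians of -0.27 against C4-2, -0.27 against 786-O and -0.13 against T24, and against T24 chromosome 16 was lower still (-0.16). No test was made of these shifts.

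Of the genes the study followed, PIR, an iron-binding nuclear protein and the target of bisamide, read 9.95, 9.95 and 9.75 in PC3, between C4-2 (10.27) and the other lines (8.28 and 8.35 in 786-O, 9.05 and 8.93 in T24). Its difference from the mean was 0.69 ± 0.10 (SE; adjusted p = 0.00296), not called. It became 1.585 under median scaling, 1.25 under the 75th percentile and 1.23 without C4-2, and was then called. HSF1, the heat shock factor, read 11.70, 11.65 and 11.80 in PC3 against 11.41 in C4-2, 11.61 and 11.57 in 786-O, and 11.05 and 11.21 in T24, a difference of 0.34 ± 0.09 (SE; adjusted p = 0.0206), and 1.19 under median scaling. ACTL8 read 6.74, 6.95 and 6.47 against 7.71 in C4-2, 7.35 and 7.85 in 786-O, and 7.29 and 6.79 in T24, a difference of -0.73 ± 0.14 (SE; adjusted p = 0.00647). The ranges of HSF1 in PC3 lay just above all other arrays, and that of ACTL8 overlapped T24. LRP8, a lipoprotein receptor, was called higher (1.22) and IGFBP3, the main carrier of insulin-like growth factors, lower (-1.32); the latter came from 786-O (11.24 and 11.27) and turned to 0.30 without that line. LRP8 and IGFBP3 lost their calls with the other lines as replicates.

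The 3 PC3 mocks carry the same label and were not alike in every gene. Of 17756 genes bright on all 3, 1053 had a range above 0.5 and 148 above 1. Replicate 3, the mock beside miR-125b-1-3p, was above the mean of the other 2 by over 1 in 67 genes and below it in 12. For replicate 1 these counts were 7 and 16, and for replicate 2 they were 8 and 11. The trefoil factors TFF3 (7.13, 7.42 and 11.17) and TFF2 (7.83, 7.76 and 10.31), secreted by mucous epithelia, were far higher in replicate 3. So were RBP4, the retinol carrier (7.31, 7.57 and 10.59), IL1B (7.41, 7.18 and 9.82) and S100A2 (8.85, 8.80 and 11.35). The S100 genes as a list stood 0.56 higher there at the median of 11 members, and the hypoxia genes 0.41, against -0.02 over all genes.

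Lower in replicate 3 were RNA5-8S5, a ribosomal RNA (12.03, 12.35 and 9.29), SIGLEC15 (8.37, 8.95 and 6.82), the neural factor POU3F2 (8.0, 8.63 and 6.90) and ARHGDIB (8.17, 8.20 and 6.90). POU3F2 was at the floor in every other line, so its level in PC3 set PC3 apart on all 3 arrays. ID1, an inhibitor of basic helix-loop-helix factors and a target of BMP signalling, was highest in replicate 1 and lowest in replicate 2 (12.06, 9.37 and 10.71). GDF15 (9.27, 11.19 and 12.18) and the disulfide isomerase AGR2 (6.85, 8.49 and 9.76) were lowest in replicate 1. Each array is a single hybridisation, so culture, labelling and array cannot be told apart, and no test was made.

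**Figure D5:**
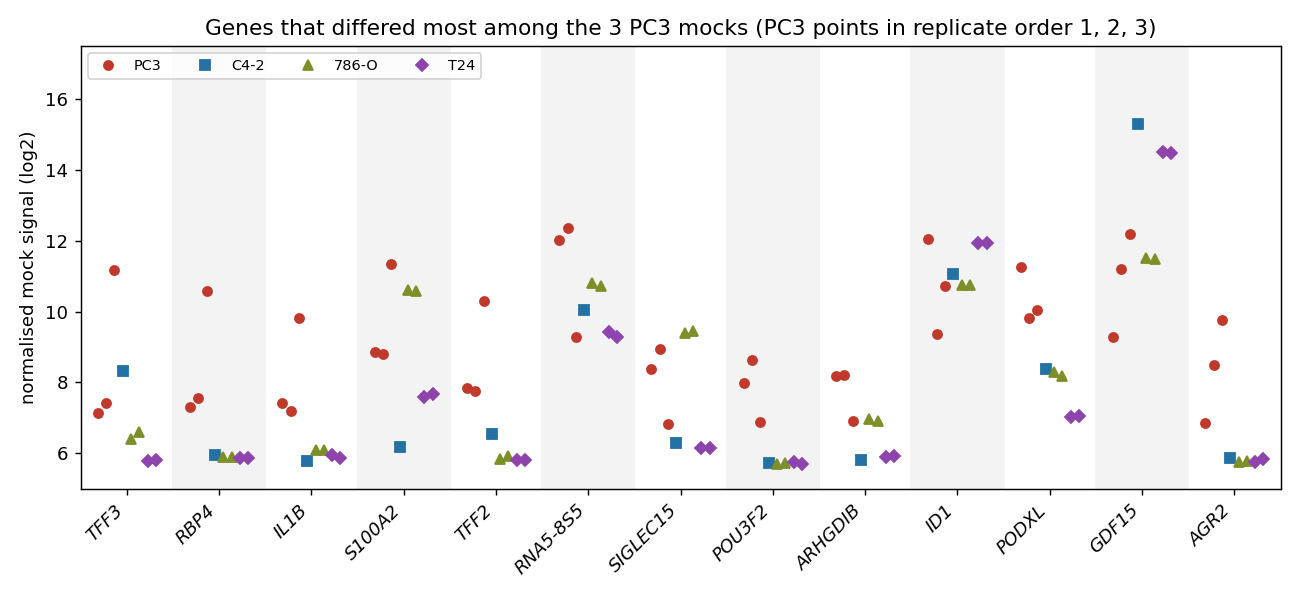
Log2 normalised mock signal (vertical) of 13 genes that differed among the PC3 mocks, 1 point per array, coloured by line, with PC3 replicates 1, 2 and 3 from left to right. TFF3 is far higher in replicate 3 than in the other 2, and RNA5-8S5 is lowest there.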

How the data were processed

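Mock RNA was labelled with Cy3 on all 8 arrays, which share 1 slide and 1 scan. The authors' scanner output came from Agilent Feature Extraction (version 11.5.1.1 in the headers), and the deposited intensity values are the mean of a spot and the median of its local background on a linear scale, not normalized. The deposited series table of log ratios was not used. Intensities were corrected by normexp (offset 50) with limma 3.58.1 in R 4.3.3, control spots were dropped, and log2 signals of the 8 Cy3 channels were quantile normalized. Outlier spots (81 to 122 per array) were left out, spots of a probe averaged, and each gene represented by its brightest probe. Of the 122 named genes, 44 had several probes that were well above background on some array. In 6 of them these probes differed in sign.

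Groups came from the cell line in the labels. The 786-O pair and the T24 pair were averaged, and limma (lmFit, eBayes with trend) tested PC3 (n = 3) against the equal-weight mean of the lines and against each line, with 2 residual and 3.59 prior degrees of freedom. The number of arrays limits the precision. For a group that was not well above background on any array, a lower bound on the fold was computed from the lowest signal that was.

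Named genes were PIR, HSF1, ACTL8, KLK3, CTNNA1, CDH1, VIM and CXCL8; the 10 highest and 10 lowest called genes bright on all 8 arrays; the 10 largest bounds each way; called members of each list and its defining gene; and the genes farthest apart among the PC3 mocks. Other list members and chromosomal neighbours in the text were picked after their values were seen. Members and lists were chosen with earlier results of these data known. Of the genes tested, 14786 matched RefSeq (GRCh38.p14, names only) by accession. Alternatives covered background correction, scaling, channel, filter, probe choice, thresholds, replicates and lines. Some genes are not reported here.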

Additional observations from a re-analysis of the deposited data

How the results depend on the processing

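Counts of called genes moved most with the processed signal of the scanner, the background offset, the scaling and the thresholds, and in each case below the cause was not tested. Against the mean of the lines, higher and lower genes numbered 2662 and 2283 with an offset of 0, 1471 and 1152 with 16, 2655 and 2284 with plain subtraction, 3404 and 3003 with the processed signal of the scanner, and 1426 and 1116 uncorrected. Median scaling gave 3428 and 251, of which 93.2% were higher, 75th percentile scaling 1898 and 478, adjusted p alone 5246 and 6832, and a difference of at least 2 gave 179 and 83. With only genes bright on all 8 arrays, fewer genes could pass (524 and 398), and lines as replicates left 393 and 116. The numbers of genes higher in PC3 than in each other line, and of genes lower in PC3 than in each other line, were 969 and 419 (offset 0), 577 and 199 (offset 16), 965 and 420 (plain subtraction), 557 and 191 (no correction), 1093 and 550 (processed signal), 1235 and 20 (median scaling), 731 and 56 (75th percentile), 1655 and 900 (adjusted p alone) and 78 and 8 (at least 2). Only 193 were higher with genes bright on all arrays. With 1 line fewer to pass, they were 570 and 198 without 786-O, and 284 were lower without C4-2 or without T24. Leaving out single arrays kept these counts at 830 to 894 and 622 to 651 against the mean, and at 331 to 389 and 95 to 108 against each line.

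Of 122 named genes, 9 turned sign in 13 fits. Without C4-2 these were CDH1 (0.13), FOLH1 (0.058), KLK2 (0.015), MME (0.030) and VIM (-0.48). Without 786-O they were CXCL8 (0.11), IGFBP3 (0.30), SCG5 (0.19) and UCHL1 (0.068). CXCL8 also turned with an offset of 0 (0.34), plain subtraction (0.34), median scaling (0.11) and the processed signal (0.76). Calls were lost in 189 fits and gained in 16. Of the losses 74 came with lines as replicates and 41 with a difference of at least 2. No paired analysis was possible because the labels carry no replicate numbers. Dim genes have little signal over background, which limits their differences.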
